A study of Mus musculus with 36 samples.

Results

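Mapt and Neurod1, both best known from nerve cells, were followed in mouse embryonic stem cells that were kept undifferentiated or allowed to differentiate. The members are the probe sets that the platform annotation assigns to either symbol alone, 7 of 24833 (5 for Mapt and 2 for Neurod1) and 2 of 13674 genes. Both genes were chosen by their fall against the control cells, so every change against control, and every change of day 5 against day 1 or day 3, is given here as a description with no test. The other comparisons between arms and between gates were tested.

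The cells carry a green fluorescent reporter driven by Oct4 (Pou5f1, a factor of undifferentiated stem cells), and were sorted into high, medium and low Oct4 gates. Before the experiment they grew on a layer of fibroblasts, and all arms were then plated on gelatin. Cells without LIF (leukemia inhibitory factor, which keeps mouse stem cells renewing themselves) were taken after 1 day (4 RNA samples: 2 high, 1 medium and 1 low gate), 3 days (3, 1 per gate) or 5 days (3, 1 per gate). Cells given 0.1 uM retinoic acid (RA, a vitamin A derivative that drives differentiation) in place of LIF were taken after 1 day (3, 1 per gate) or 2 days (2, medium and low gate), and control cells with 1000 U per mL LIF after 2 days (3: 2 high and 1 medium gate). Each of the 18 RNA samples was measured on 2 array types, chip A and chip B, 36 arrays in all. No label gives separate cultures for the samples of an arm, so a p-value here reflects only how these samples vary, which differ in gate and may otherwise be technical repeats.

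Mapt encodes tau, a protein that binds and stabilises microtubules, above all in axons. Its phosphorylation by kinases such as GSK3 beta and CDK5 loosens it from the microtubule. Neurod1 encodes a basic helix-loop-helix (bHLH) transcription factor that pairs with E proteins, binds the E-box motif and promotes the differentiation of neurons and of endocrine cells of the pancreas and gut. In a dividing progenitor, Notch signalling, Hes repressors and Id proteins hold factors of this kind back, and REST, a repressor of neuronal genes, holds back many of their targets.

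In the RefSeq annotation of GRCm38.p6 Mapt spans chr11:104229409-104332090 and Neurod1 spans chr2:79452637-79456636. A promoter window was found by symbol for 1 of the 2 genes. It is shown because the product of Neurod1 is itself an E-box factor, and it runs over 300 bases at chr2:79456587-79456886 on the minus strand, with 250 bases before the gene's start and 50 after it. Capitals mark the E-box, searched as CANNTG, whose reverse complement is the same pattern.
Neurod1 promoter: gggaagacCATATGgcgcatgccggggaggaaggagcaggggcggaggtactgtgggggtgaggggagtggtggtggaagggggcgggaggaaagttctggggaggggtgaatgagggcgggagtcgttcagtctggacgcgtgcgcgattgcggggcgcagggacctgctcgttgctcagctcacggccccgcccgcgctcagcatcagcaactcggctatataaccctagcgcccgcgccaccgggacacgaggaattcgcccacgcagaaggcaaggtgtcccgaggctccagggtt
The window held 1 E-box, CATATG, and 72.3% of the 32851 RefSeq promoter windows of this length held at least 1. Its GC content was 66.7%, against a median of 52.7% over all windows.

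The deposited values are linear MAS5 signals (Affymetrix's summary of a probe set's brightness), scaled to a common trimmed mean on each array. One library has to be named before the results. The day 1 sample without LIF, high gate, replicate 2, stood apart from the other 3 samples of its arm. Its Pou5f1 signal was 1130, against 2320 to 2520 in the other 3, and its summed signal over 10 embryonic stem cell markers was 11200, against 17100 to 17700. Its fibroblast marker sum was 1100, against 533 to 572. It was scanned with control high gate replicate 2 on a day of their own, and its run record, like those of the 3 controls, gives no RA state. Comparisons that rest on it are given with and without it. Of the 4 scan days, the second held all 3 samples of day 3 without LIF and of day 1 with RA, and the third held day 5, day 2 with RA and the other 3 samples of day 1 without LIF. The controls had scan days 1 and 4, so each change against control, apart from the pair of high gate libraries of scan day 1, cannot be told apart from a change of scan day. In sorted bulk samples, fewer cells that express a gene and less RNA per cell cannot be told apart either.

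Mapt was highest in the control arm and lower in every arm that differentiated. Its brightest probe set on chip A, 102431_at, which is taken as its lead, had signals of 603, 289 and 385 in control cells (high gate replicates 1 and 2, medium gate). On day 1 without LIF it had 146, 165 and 129 in high replicate 1, medium and low gate, and 25.2 in high gate replicate 2. The day 1 values all lay below the control values. On day 3 the signals were 6.54, 8.28 and 30.5 in the high, medium and low gate, and on day 5 they were 29.0, 16.7 and 42.0. With RA they were 6.82, 47.2 and 19.9 on day 1 in the same gate order, and 39.9 and 48.8 in the medium and low gate on day 2. No library of days 3 and 5 or of the RA arms reached the lowest of the 3 other day 1 libraries.

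**Figure D1:**
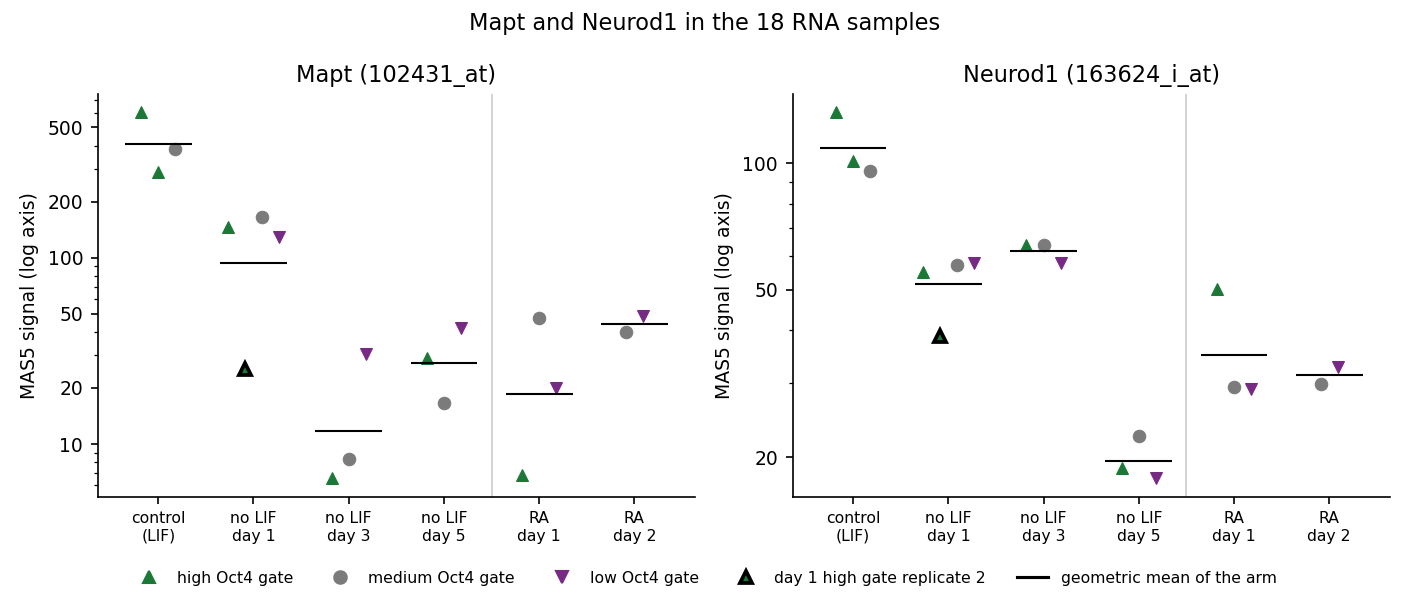
MAS5 signal (log axis) of the lead probe sets of Mapt and Neurod1 in each of the 18 RNA samples, by arm, with the gate as the symbol and a line at each arm's geometric mean. Control samples sit above all others for both genes, and day 1 high gate replicate 2 (black outline) sits below the other 3 samples of its arm, at 25.2 for Mapt and 38.9 for Neurod1.

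Averaged over an arm, Mapt signal was 426 ± 161 in control (SD, n = 3), 116 ± 62.4 on day 1 without LIF (n = 4), 15.1 ± 13.4 on day 3 (n = 3) and 29.3 ± 12.6 on day 5 (n = 3). With RA it was 24.7 ± 20.6 on day 1 (n = 3) and 44.3 ± 6.26 on day 2 (n = 2). The day 1 mean less high gate replicate 2 was 146 ± 18.2 (n = 3). On its array the Mapt probe set ranked at the 83.3 to 91.8 percentile of all probe sets in control and at the 15.5 to 42.2 percentile on day 3, a range in which MAS5 signals carry much background. By mean log2 signal the arms run in the order control, day 1 without LIF, day 2 with RA, day 5, day 1 with RA and day 3. All control libraries lay above all day 1 libraries, and no other pair of neighbours in that order was separated.

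As a description of the choice, the fitted change of Mapt against control was -2.24 ± 0.56 on the log2 scale (SE) on day 1 without LIF, -4.97 on day 3 and -4.03 ± 0.61 on day 5. It was -4.45 on day 1 with RA and -3.69 on day 2 with RA. These changes are on a log2(signal + 4) scale, which understates changes of dim signals. The day 1 change was -1.69 without high gate replicate 2. Day 5 lay below day 1 without LIF, with a log2 change of -1.79 ± 0.55, or of -2.24 ± 0.26 among the samples of scan day 3. Day 5 lay above day 3 by 0.94 ± 0.59.

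The 4 other Mapt probe sets gave smaller changes. On chip A, 102742_g_at had signals of 230, 111 and 148 in control and 33.2 to 79.2 on day 1 without LIF. It had 33.5 to 36.4 on day 3 and 31.4 to 36.2 on day 5. It had 16.2 to 34.2 on day 1 with RA and 31.7 and 38.0 on day 2. All controls lay above all other samples, as for the lead, and the day 5 change against control was -2.18.

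On chip A, 102743_at had 52.6 to 87.3 in control, 48.1 to 61.8 on day 1, 21.0 to 54.7 on day 3 and 12.9 to 34.8 on day 5. With RA it had 36.6 to 57.9 on day 1 and 19.3 and 60.7 on day 2. Only the day 5 libraries all lay below all controls for this probe set. On chip B, 116406_at had 353, 95.9 and 210 in control, 53.6 to 133 on day 1, 46.5 to 107 on day 3 and 25.7 to 89.5 on day 5. With RA it had 44.4 to 60.8 on day 1 and 53.4 and 75.6 on day 2. One control, high gate replicate 2, lay among the day 1 and day 3 libraries there. The day 5 changes against control were -1.76 for 102743_at and -1.84 for 116406_at.

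The last Mapt probe set, 164807_at on chip B, stayed between 4.64 and 12.9 in all 18 libraries, at or under the 19.0 percentile of each array. It failed the brightness filter, under which the brightest 60% of probe sets of each chip were tested. Brightness was the mean log2 signal over all 18 samples, controls included. The day 5 change of 164807_at against control was -0.19 ± 0.22. The array maker's suffix g marks probe sets made for groups of similar sequences, and the suffix i marks sets with fewer probes than usual.

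**Figure D2:**
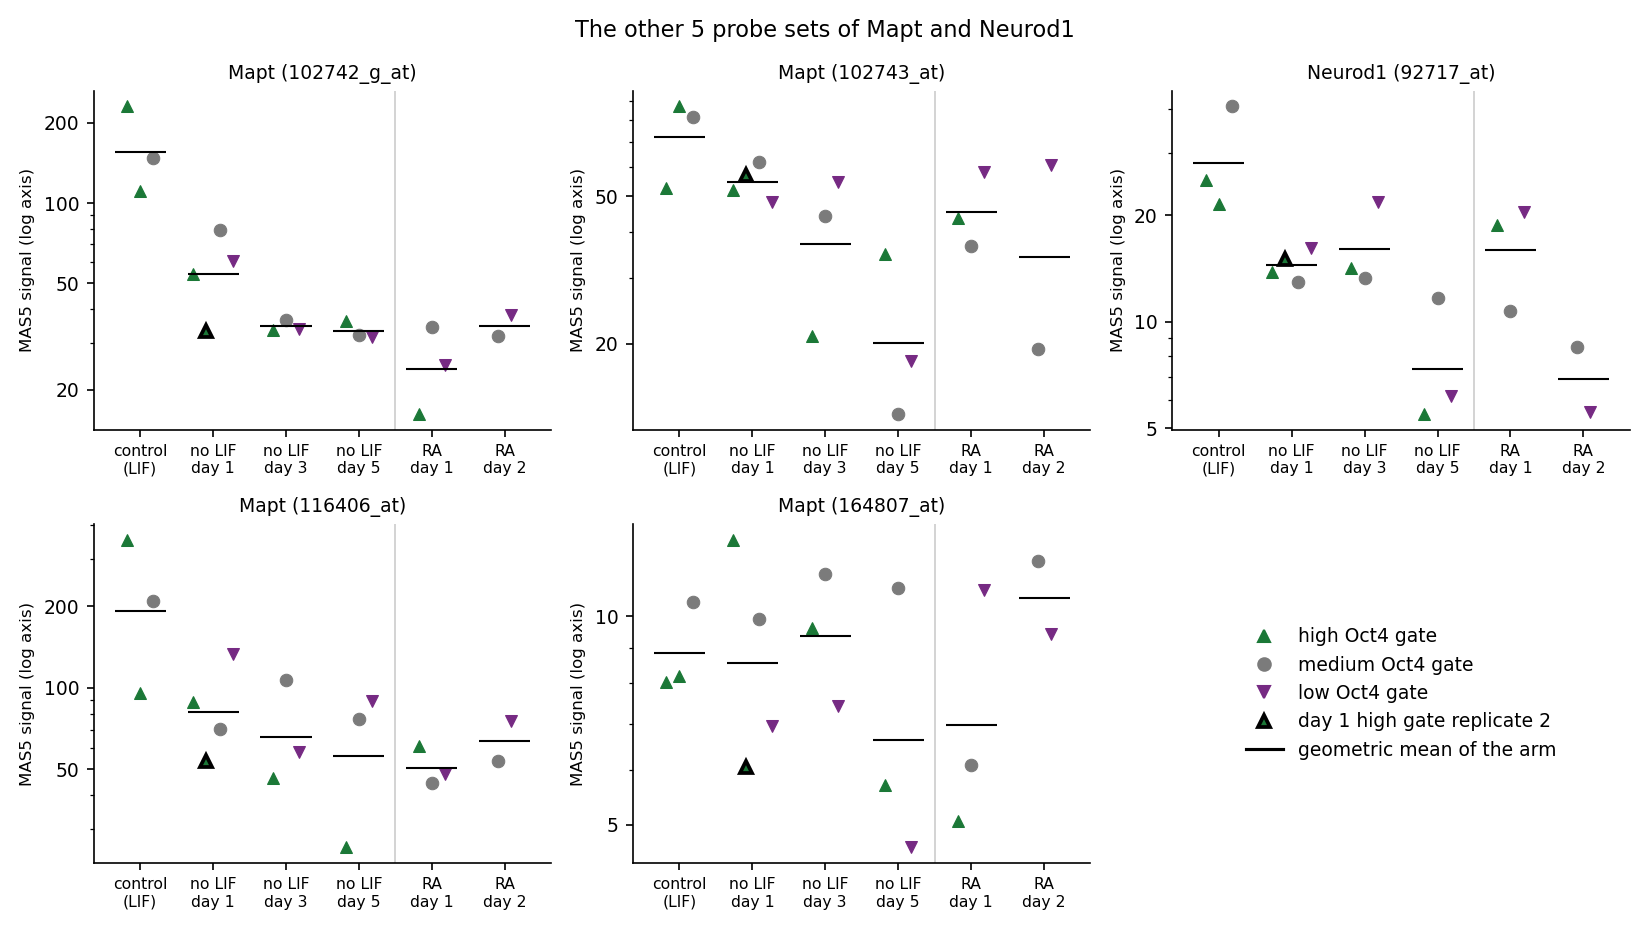
MAS5 signal (log axes that differ between panels) of the other 4 Mapt probe sets and of the second Neurod1 probe set in each RNA sample, by arm and gate, with a line at each arm's geometric mean. The controls of 102742_g_at and 92717_at lie at or above nearly all other samples, and 164807_at stays between 4.64 and 12.9 throughout.

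Neurod1 followed another order. Its lead probe set, 163624_i_at on chip B, had 132, 101 and 95.6 in control (high replicates 1 and 2, medium gate). On day 1 without LIF it had 55.0, 57.2 and 58.0 in high replicate 1, medium and low gate, and 38.9 in high gate replicate 2. On day 3 it had 63.9, 63.7 and 57.8, and on day 5 18.9, 22.5 and 17.8. For this probe set the signal was thus lower than control in every day 1 library and at overlapping levels on days 1 and 3. It was lowest on day 5, with no overlap between day 5 and any other arm. With RA it had 50.3, 29.3 and 29.1 on day 1, and 29.9 and 32.8 on day 2.

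The arm means of Neurod1 were 109 ± 19.6 in control (SD, n = 3), 52.3 ± 9.02 on day 1 without LIF (n = 4), 61.8 ± 3.48 on day 3 (n = 3) and 19.7 ± 2.45 on day 5 (n = 3). With RA they were 36.2 ± 12.2 on day 1 (n = 3) and 31.4 ± 2.10 on day 2 (n = 2). Without high gate replicate 2 the day 1 mean was 56.7 ± 1.57 (n = 3). By mean log2 signal the order of the arms was control, day 3, day 1 without LIF, day 1 with RA, day 2 with RA and day 5. Only control above day 3, and day 2 with RA above day 5, were separated without overlap. The probe set ranked at the 57.3 to 66.7 percentile of its arrays in control and at the 20.1 to 24.1 percentile on day 5.

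As a description, the fitted log2 change of Neurod1 against control was -0.96 ± 0.19 (SE) on day 1 without LIF, -0.71 on day 3 and -2.08 ± 0.21 on day 5. It was -1.42 on day 1 with RA and -1.52 on day 2 with RA. On this chip the scale is log2(signal + 7). Day 5 lay below both earlier days, with a log2 change of -1.12 ± 0.19 against day 1 (-1.26 ± 0.15 within scan day 3) and of -1.37 ± 0.20 against day 3. The second probe set, 92717_at on chip A, failed the brightness filter. It had 25.2, 21.6 and 40.7 in control, 13.0 to 16.2 on day 1, 13.3 to 21.8 on day 3 and 5.48 to 11.7 on day 5. With RA it had 10.7 to 20.4 on day 1 and 8.49 and 5.57 on day 2. Unlike in the lead, day 2 with RA overlapped day 5 and had the lowest mean log2 signal (3.45, against 3.52 on day 5). The day 5 change of 92717_at against control was -1.56 ± 0.27.

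The arms that did not involve control were compared in 1 limma model of arm and gate over all 18 samples, and p-values were adjusted over all tested probe sets of each chip. For day 3 against day 1 without LIF, 3.41% of the 14900 probe sets passed an adjusted p under 0.05 in either direction. Day 1 with RA gave 6.52% when set against day 1 and 4.32% against day 3, both without LIF. For day 2 with RA it was 2.4% against day 1 with RA and 7.89% against day 1 without LIF. With high gate replicate 2 left out the share was 14.9% for day 3 against day 1 without LIF. It was 17.3% for day 1 with RA set against its counterpart without LIF. It was 7.76% for day 1 with RA against day 3, and 17.9% for day 2 with RA against day 1, both without LIF.

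Mapt fell between day 1 and day 3 without LIF, with a signal of 15.1 ± 13.4 on day 3 (SD, n = 3), against 116 ± 62.4 on day 1 (n = 4). The log2 change was -2.73 ± 0.55 (SE), with a limma adjusted p of 0.0178. Its size depends on the pseudocount, since the day 3 signals are dim and not shown to be above background: it was -3.03 with a pseudocount of 1 (adjusted p = 0.0195) and -1.86 with 0.5 of the chip median (0.0128). Of the other probe sets, 102742_g_at changed by -0.64 (limma adjusted p = 0.169), 102743_at by -0.52 (0.407) and 116406_at by -0.36 (0.69), so none of these passed. Less high gate replicate 2, the lead changed by -3.18 ± 0.48 (limma adjusted p = 0.000702). The call was lost without the day 1 medium (adjusted p = 0.0744), day 1 low (0.0563), day 3 high (0.085) or day 3 medium gate library (0.0815), with changes of -2.44 to -2.81. Day 3 and day 1 share no scan day, so a change of scan cannot be told apart from the change between days. With scan day as a random block limma gave -2.45 (adjusted p = 0.619), and -3.18 (0.00968) without high gate replicate 2. Tagln, which weighs much in the fibroblast marker sum, had a mean of 607 on day 3, against 178 on day 1. The sum was 1180 to 1280 on day 3, against 533 to 572 in 3 day 1 libraries and 1100 in high gate replicate 2. The log2 ratio of 3' to 5' Gapdh signal on chip A, a measure of RNA quality, was 0.65 to 0.79 on day 3, against 0.92 to 1.00 in those 3 and 0.68 in high gate replicate 2. The part of either in the result was not tested.

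Mapt was also lower on day 1 with RA, at 24.7 ± 20.6 (SD, n = 3), against 116 ± 62.4 on day 1 without LIF (n = 4). The log2 difference was -2.20 ± 0.55, with a limma adjusted p of 0.0268. It was -2.41 with a pseudocount of 1 (adjusted p = 0.031) and -1.56 with 0.5 of the chip median (0.0186), and the RA signals are likewise dim and not shown to be above background. With no brightness filter the call was lost. The second chip A probe set, 102742_g_at, was lower as well, by -1.10 ± 0.26 (limma adjusted p = 0.022), while 102743_at gave -0.27 (0.689) and 116406_at gave -0.71 (0.341). Without high gate replicate 2 the lead differed by -2.66 ± 0.48 (limma adjusted p = 0.00183). The call was lost when day 1 high replicate 1 (adjusted p = 0.076), day 1 medium (0.0963), day 1 low (0.0719), RA high (0.13) or RA low (0.129) was left out, with differences of -1.81 to -2.29. These arms share no scan day either, and with a random block for scan day the difference was -1.92 (limma adjusted p = 0.58), or -2.66 (0.0191) without high gate replicate 2. The log2 ratio of 3' to 5' Gapdh signal on chip A was 1.28 (range 1.11 to 1.45) on day 1 with RA, against 0.90 (0.68 to 1.00) on day 1 without LIF. The fibroblast marker sum was 973 to 1230 on day 1 with RA, against 533 to 1100 on day 1 without LIF. Within that sum, Tagln had means of 516 and 178. The part of RNA quality or of the fibroblast sum in the result was not tested.

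On day 2 with RA, Mapt was at 44.3 ± 6.26 (SD, n = 2), against 116 ± 62.4 on day 1 without LIF. The log2 difference was -1.45 ± 0.65 and did not pass the test (limma adjusted p = 0.177). It did pass without high gate replicate 2, at -1.81 ± 0.55 (limma adjusted p = 0.0308). It also passed among the samples of scan day 3 alone, at -1.62 ± 0.30 (limma adjusted p = 0.0133). In those samples the log2 ratio of 3' to 5' Gapdh signal on chip A was 0.62 and 0.84 with RA, against 0.92 to 1.0 on day 1. Its part in the difference was not tested. Between day 2 and day 1 with RA the difference was 0.76, with a 95% interval of -0.68 to 2.19 (limma adjusted p = 0.614). Between day 1 with RA and day 3 without LIF it was 0.52, with an interval of -0.74 to 1.78 (limma adjusted p = 0.648), and 0.52 within scan day 2. Those intervals hold changes of more than 1 log2 unit, so they do not show equal levels.

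None of the 6 tested comparisons of Neurod1 passed with all 18 samples. The brightness filter used the control samples that chose the gene, also in fits that left samples out. The lead ranked at the 57.3 to 66.7 percentile in control and at the 20.1 to 47.0 percentile in the other arms. Whether it would pass the filter without the controls was not tested. On day 1 with RA the Neurod1 signal was 36.2 ± 12.2 (SD, n = 3), against 61.8 ± 3.48 on day 3 without LIF (n = 3). The log2 difference was -0.70 ± 0.20 (limma adjusted p = 0.0725), with each RA library below each day 3 library. It passed without high gate replicate 2 of day 1, which is in neither arm, at -0.70 ± 0.17 (adjusted p = 0.0338), and with a fixed block for scan day (0.0322). The difference did not pass when control and day 5 were left out as well as that library (-0.70 ± 0.18, adjusted p = 0.0596). Within scan day 2, which holds both arms, it was -0.70 ± 0.19 (adjusted p = 0.131). The dim second probe set gave a difference of 0.00 ± 0.26 here. RNA quality differed between these arms: the log2 ratio of 3' to 5' Gapdh signal on chip B was 1.28 (range 1.17 to 1.35) on day 1 with RA, against 0.61 (0.50 to 0.79) on day 3 without LIF, with no overlap. Its part in the difference was not tested.

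Against day 1 without LIF, at 52.3 ± 9.02 (SD, n = 4), Neurod1 differed by -0.46 ± 0.19 on day 1 with RA (limma adjusted p = 0.178) and by -0.57 ± 0.23 on day 2 with RA (0.16). Both passed in the same model without high gate replicate 2, with the filter that used the controls. The differences were then -0.60 ± 0.17 for day 1 with RA (limma adjusted p = 0.0372) and -0.67 ± 0.20 for day 2 with RA (0.0379). In limma fits that also left out control and day 5, neither passed (-0.60, adjusted p = 0.0593, on day 1 with RA and -0.66, 0.0693, on day 2). With a random block for scan day and without that library, the day 1 difference of -0.60 did not pass either (adjusted p = 0.098). Within scan day 3 the day 2 difference was -0.75 ± 0.17 (limma adjusted p = 0.0495). The signals were 29.9 and 32.8 on day 2 with RA, against 55.0 to 58.0 on day 1 without LIF. In these samples the log2 ratio of 3' to 5' Gapdh signal on chip B was 0.84 and 0.98, against 1.12 to 1.2. Its part in the difference was not tested. The dim second probe set differed from day 1 without LIF by 0.09 ± 0.25 on day 1 with RA and by -0.86 ± 0.29 on day 2. Day 3 and day 1 without LIF differed by 0.24 with a 95% interval of -0.17 to 0.65 (limma adjusted p = 0.536). Day 2 and day 1 with RA differed by -0.11 with an interval of -0.60 to 0.39 (limma adjusted p = 0.839).

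**Figure D3:**
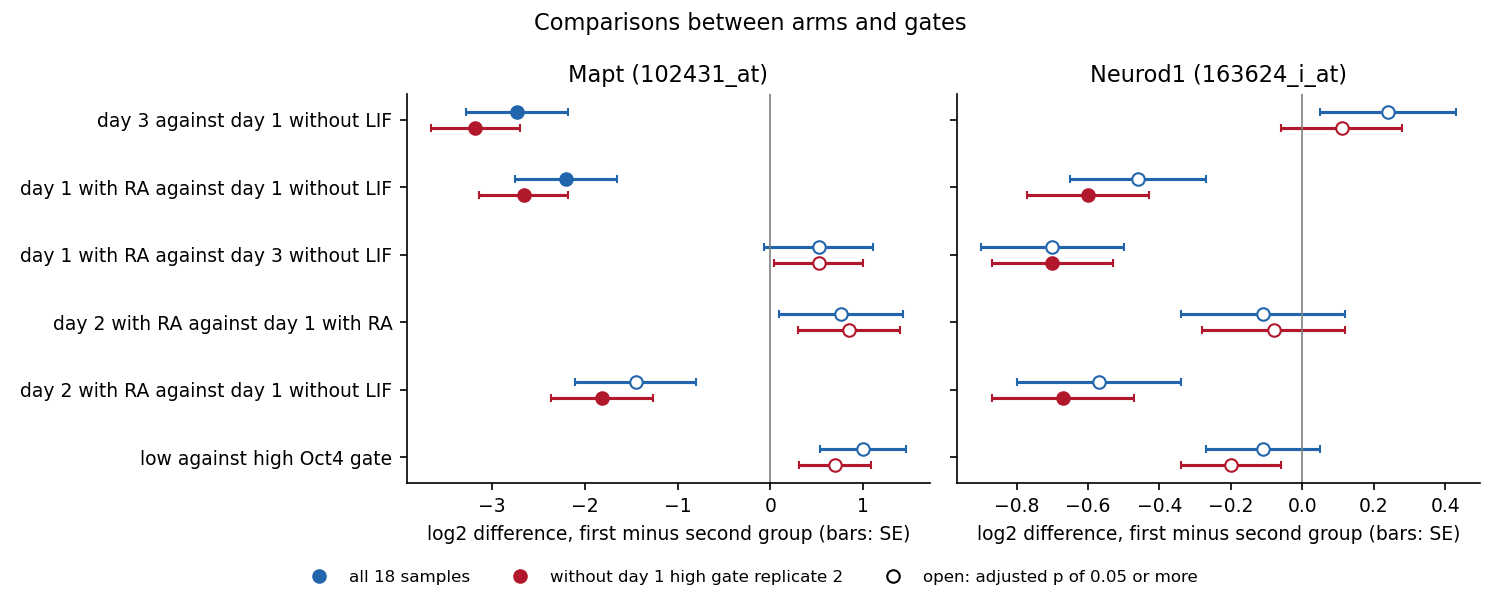
Log2 differences (first group minus second) of the lead probe sets of Mapt and Neurod1 in the 6 tested comparisons, with SE bars, from all 18 samples (blue) and without day 1 high gate replicate 2 (red). Filled points passed an adjusted p under 0.05, which for Mapt with all samples are day 3 (-2.73) and day 1 with RA (-2.20), each set against day 1 without LIF. For Neurod1 they are only points without that library.

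Neither gene passed the test between the gates of Oct4. For low against high gate, 0.0% of probe sets passed in limma, 0 of 14900, and 808 (5.42%) had an unadjusted p under 0.05. The fitted low minus high difference of Mapt was 1.00 ± 0.46 (limma adjusted p = 0.823, 95% interval 0.01 to 1.98). Low minus high was 1.00 on day 1, 1.71 on day 3, 0.48 on day 5 and 1.14 on day 1 with RA. The day 1 value turns on high gate replicate 2, since the low gate signal of 129 lay below the 146 of high gate replicate 1. The difference was 1.43 within scan day 2 and 0.13 within scan day 3, and 0.70 without high gate replicate 2. The plain means over all libraries run the other way (5.60 in low and 5.92 in high, log2), and the high gate holds 2 control samples while the low gate holds none. Neurod1 differed by -0.11 ± 0.16 (limma adjusted p = 0.974, 95% interval -0.45 to 0.23).

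Over the 18 libraries, the genes whose log2 signal was most like that of Mapt on chip A were Tfcp2l1 (Pearson r = 0.95), Cdc5l, Calml4, Hmces, Klf4 and Slc11a1 (0.90 each). The libraries share scan days and the same control samples, so r is a description, and 1 in 100 of the 5674 genes compared had an r above 0.80. Tfcp2l1 and Klf4 are transcription factors of the undifferentiated state that respond to LIF. Tfcp2l1 had a signal of 777 to 1240 in control, 255 to 608 on day 1, 112 to 233 on day 3 and 192 to 234 on day 5. It had 152 to 302 on day 1 with RA and 157 to 210 on day 2. Klf4 had 476 to 1060 in control, 68.3 to 271 on day 1, 57.7 to 125 on day 3 and 173 to 218 on day 5, and with RA 34.0 to 68.1 and 85.1 to 91.2. Mapt, Tfcp2l1 and Klf4 all had their lowest arm without LIF on day 3, with higher means on day 5. Their choice by r over the same libraries favours such a shared order. For the chip B probe set 116406_at the likest genes were Cep57l1 (0.79), Enpp4, Ints4, Jam2 (0.78 each), Ciao3 and Klhl8 (0.77 each). Genes with a tested probe set on chip A were left out of that ranking.

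Neurod1 was compared on chip B with the 4157 genes that had no tested probe set on chip A. The likest were Asxl2 and Fig4 (Pearson r = 0.92 each), Rpp25 and Heatr1 (0.91 each), and Prpf3 and Osgep (0.90 each). There, 1 in 100 genes had an r above 0.83. Asxl2 is a chromatin regulator, Fig4 a lipid phosphatase, Rpp25 a subunit of ribonuclease P, Heatr1 a ribosome synthesis factor, Prpf3 a splicing factor and Osgep a tRNA modification enzyme. All 6 had their lowest arm mean on day 5, as the Neurod1 lead did, which their choice by r over the same libraries favours. Rpp25 had a signal of 54.3 to 67.2 on day 5, against 308 to 458 in control, and Asxl2 had 181 to 243 on day 5, against 450 to 557 in control. Over the libraries less high gate replicate 2, r was 0.89 to 0.95 for the genes likest to Mapt and 0.90 to 0.93 for those likest to Neurod1.

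**Figure D4:**
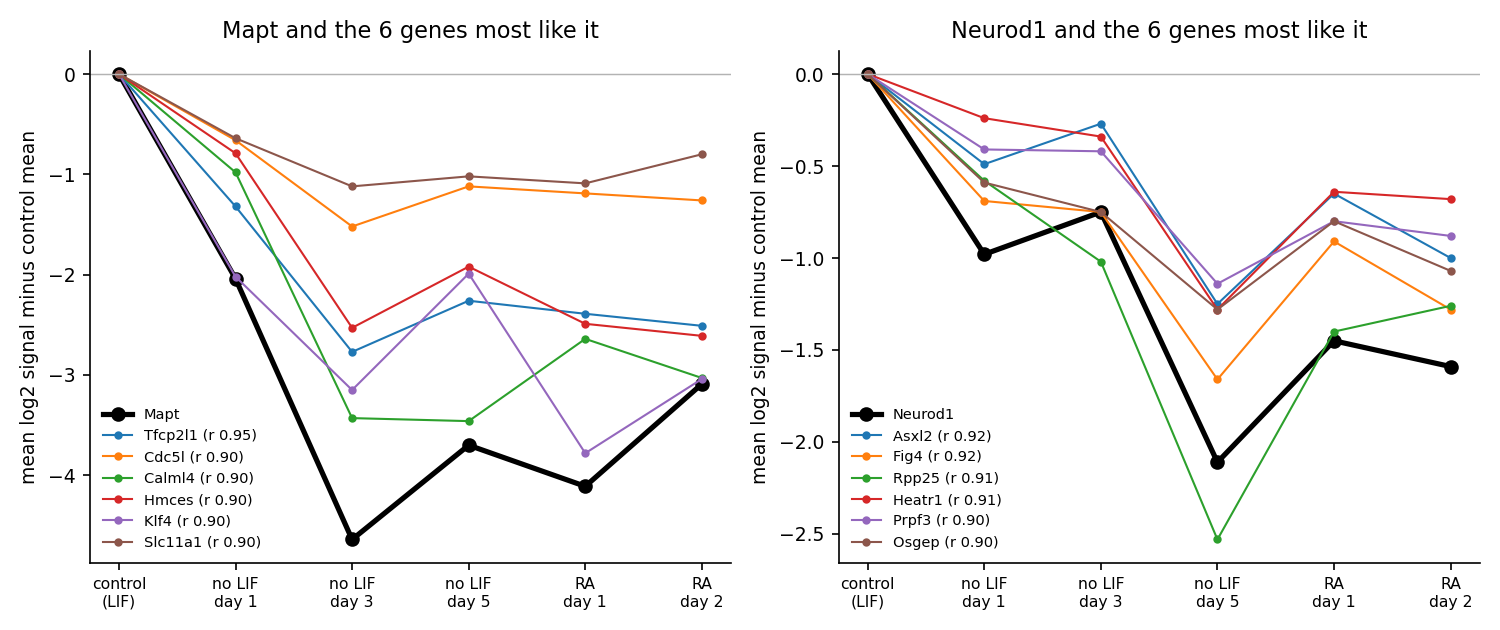
Mean log2 signal of each arm minus the control mean, for Mapt (left) and Neurod1 (right, both black) and the 6 genes of their chip with the highest Pearson r over 18 libraries. On chip B only genes with no tested probe set on chip A were compared. Without LIF, Mapt and 5 of its 6 likest genes (not Calml4) have their lowest mean on day 3. Neurod1 and all 6 of its likest genes have it on day 5. The choice by r over the same libraries favours a shared lowest arm.

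The 2 leads resembled each other only in part, with r = 0.56 over the 18 libraries and r = 0.01 after the mean of each arm was taken off. Between Mapt probe sets, the lead had r = 0.91 with 102742_g_at, 0.69 with 116406_at, 0.53 with 102743_at and 0.12 with 164807_at. The Neurod1 probe sets had r = 0.77 with each other. With Pou5f1, r was 0.78 for Neurod1 (0.57 after arm means were taken off) and 0.45 for Mapt (0.12). Pou5f1 (1130) and Neurod1 (38.9) were both low in high gate replicate 2 of day 1 without LIF. The 0.57 may therefore rest in part on that library, and the r values of this paragraph were not recomputed without it. Pou5f1 had signals of 2390 to 2820 in control, 1130 to 2520 on day 1, 1250 to 1660 on day 3 and 527 to 901 on day 5. It had 1060 to 1750 on day 1 with RA and 284 and 602 on day 2.

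Genes around tau and NeuroD1 were counted in 5 lists of 177 genes, 114 of them measured, with 1 probe set per gene and limma tests over all 14900 probe sets. On day 5 without LIF against control, 17.2% of 9833 genes were called higher and 15.2% lower. Of 25 measured genes of neuronal structure and synapse, 2 were higher and 8 lower (32.0%), with a median of -0.24 against 0.01 for all genes. The RNA-binding protein Elavl3 fell to 44.3 ± 3.63 on day 5, against 324 ± 91.7 in control (SD, n = 3 each), a log2 change of -2.65 ± 0.27 (limma adjusted p = 1.8e-05). The neurofilament gene Nefh fell to 22.2 ± 5.23, against 93.8 ± 2.60 in control (-1.86 ± 0.21, limma adjusted p = 1.44e-05). Uchl1, a ubiquitin hydrolase, changed by -1.34 and the intermediate filament gene Ina by -1.95, both past the test. The probe set of Ina, like that of Celf4 named below, is one for a family of similar sequences. All 10 calls of this list were also made without high gate replicate 2 of day 1, and 7 or 8 members were lower when any 1 control or day 5 sample was left out. The log2 ratio of 3' to 5' Actb signal was 0.83 to 0.94 on day 5, against 1.10 to 1.34 in control, on chip A. It was 0.73 to 0.93, against 1.19 to 1.43, on chip B, while the ratios of Gapdh overlapped. The part of RNA quality in these calls was not tested.

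On day 2 with RA against control, where 8.79% of genes were higher and 8.4% lower, the neuronal list had 4 of 25 higher and 3 lower, with a median of 0.12. The adhesion molecule Ncam1 rose to 215 ± 7.62 on day 2 with RA (SD, n = 2), against 63.7 ± 9.65 in control (n = 3), a log2 change of 1.67 ± 0.18 (limma adjusted p = 7.57e-05). The synaptic vesicle gene Syt1 rose by 1.88 (limma adjusted p = 0.0248), while Elavl3 changed by -2.37 and the RNA-binding protein Celf4 by -1.32. The counts were 6 higher and 3 lower without high gate replicate 2 of day 1. The number higher was 1 without the control medium gate or the day 2 medium gate sample, and 2 without control high replicate 1 or the day 2 low gate sample. Ncam1 and Syt1 were thus higher in an arm in which Mapt and Neurod1 were both below control. The comparisons of days 5 and 2 share the same 3 control samples. On day 2 with RA the Actb ratio was 0.79 to 0.86 on chip A and 0.99 to 1.00 on chip B, below all controls. The Gapdh ratio overlapped that of control on chip B only, and the part of RNA quality was not tested.

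Of 31 microtubule-associated proteins and tubulins, 6 (19.4%) rose and 5 (16.1%) fell on day 5, near the share of all genes, with a median of 0.14. Without control high replicate 1 or the day 5 low gate sample 3 fell. Tubb2a fell by -1.54 and Tubb6 rose by 1.25, both beta tubulins, and the microtubule-binding kinase gene Dclk1 rose by 1.05. The probe sets of these 2 tubulins are ones for families of similar sequences. On day 2 with RA 4 (12.9%) rose and 2 (6.45%) fell, against 8.79% and 8.4% of all genes. Among them were Tuba1a, an alpha tubulin of developing neurons (1.02), and Map7 (-0.90). With 1 of the day 2 samples left out 1 or 2 rose. Of 29 tau kinases, phosphatases and partners, 9 (31.0%) rose and 3 (10.3%) fell on day 5, against 17.2% and 15.2% of all genes. The number that rose was 4 without the day 5 high gate sample. App, the amyloid precursor, rose to 1320 ± 122 on day 5, against 104 ± 39.2 in control (SD, n = 3 each), a log2 change of 3.64 ± 0.46 (limma adjusted p = 4.07e-05). The calmodulin kinase genes went opposite ways, Camk2d by 2.12 and Camk2b by -1.70, both past the test. On day 2 with RA 5 (17.2%) of these rose and 2 (6.9%) fell, against 8.79% and 8.4% of all genes. Fyn, a kinase that binds tau, rose by 2.03 (limma adjusted p = 9.59e-05). Without the day 2 low gate sample 3 rose and 0 fell.

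Of 23 measured proneural bHLH factors and partners, 12 (52.2%) rose and 2 (8.7%) fell on day 5, against 17.2% and 15.2% of all genes. The median was 0.88, against 0.01 for all genes. Leaving out 1 sample at a time gave 8 to 13 higher. Those that rose include inhibitors of proneural factors. The repressor gene Hes1 was at 694 ± 69.3 on day 5, against 165 ± 44.6 in control (SD, n = 3 each), a log2 change of 2.08 ± 0.18 (limma adjusted p = 2.08e-06). The inhibitor gene Id1 rose by 1.83 and the Notch ligand gene Dll1 by 3.30, both past the test. Rest was at 323 ± 17.5 on day 5, against 1090 ± 317 in control (SD, n = 3 each), a change of -1.78 ± 0.29 (limma adjusted p = 0.000325). On day 2 with RA 6 (26.1%) rose and 2 (8.7%) fell, against 8.79% and 8.4% of all genes. Id3 changed by 1.83, Hes1 by 0.89 and Rest by -1.74. The number that rose was 3 without the control medium gate sample and 1 or 2 with 1 of the day 2 samples left out. Of 29 genes listed as NeuroD1 targets, 9 were measured. On day 5, 1 rose (Cdkn1a, a cell cycle inhibitor, 0.92) and 1 fell (Stmn2, a tubulin-binding protein, -1.16). That is 11.1% each way, below the 17.2% and 15.2% of all genes. On day 2 with RA 0 rose in limma and 1 fell, the islet factor gene Pax4 (-0.88), whose call was lost without any 1 of the controls or the day 2 medium gate sample.

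**Figure D5:**
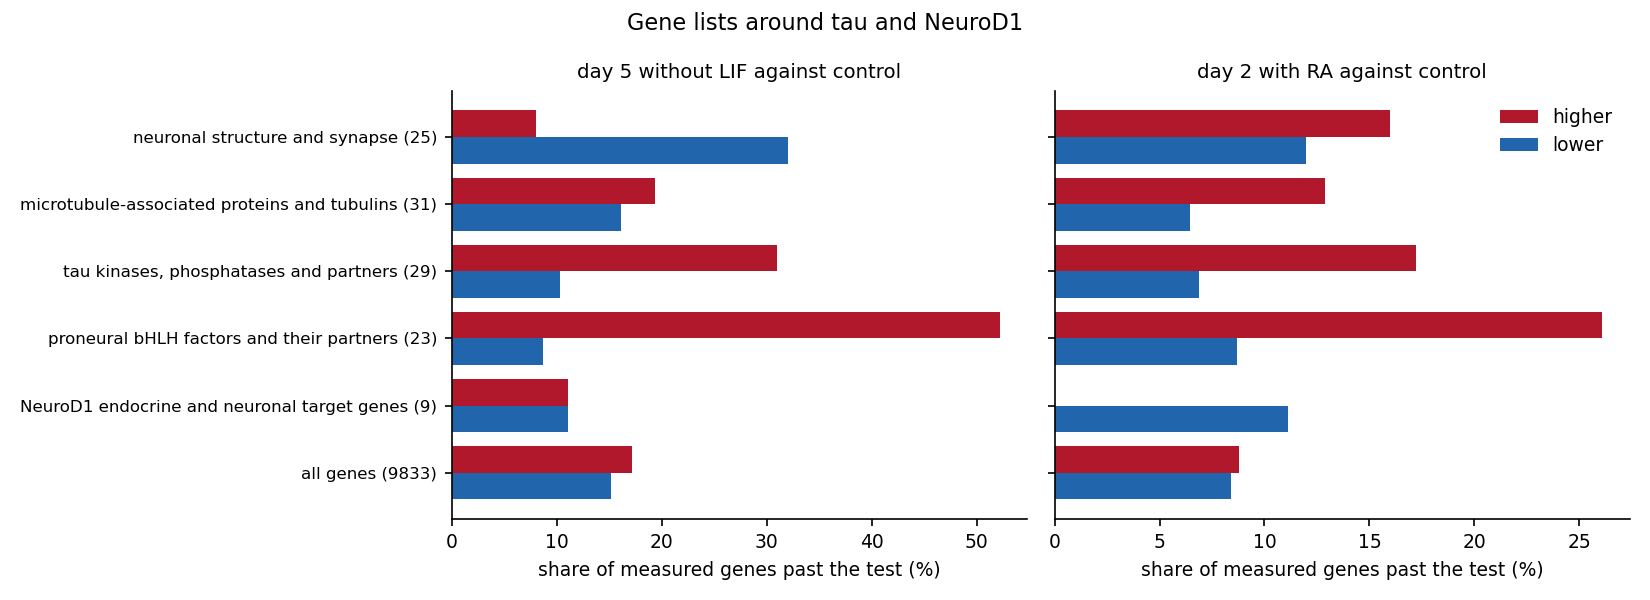
Share of the measured genes of each list (number in brackets) called higher or lower in limma on day 5 without LIF (left) and day 2 with RA (right), each against control, beside the share of all genes, with axes that differ between the panels. On day 5, 52.2% of proneural bHLH factors and partners were higher and 32.0% of neuronal genes were lower, against 17.2% and 15.2% of all genes.

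On day 1 with RA against day 1 without LIF, 3.28% of genes were higher and 3.45% lower. The neuronal list had 1 of 25 higher (Nefm, 1.86 ± 0.49, limma adjusted p = 0.0467) and 0 lower, and the tau partner list 3 of 29 higher, among them Gsk3b at 1.12. The microtubule list had 3 of 31 higher and 0 lower, and the proneural list 1 higher (Id1, 1.48) and 1 lower (Rbpj, the Notch effector, -1.05). Of NeuroD1 targets 0 were called. Without high gate replicate 2 the counts higher and lower were 5 and 1 (neuronal), 8 and 1 (tau partners), 6 and 1 (microtubule), 7 and 2 (proneural) and 1 and 0 (targets). Calls over all probe sets rose as well in that fit, to 1457 higher and 1114 lower of 14900 (17.3% in either direction). The 2 day 1 arms share no scan day. With scan day as a random block, 0 members of the neuronal, microtubule and tau partner lists were called between them. Over all 14900 probe sets that block left 4 calls. Between low and high gate, 0.0% of genes were called higher and 0.0% lower, and 0 list members.

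Marker genes show what cells the libraries could hold. The summed signal of 10 embryonic stem cell markers was 17000 to 21100 in control, 11200 to 17700 on day 1, 9710 to 10600 on day 3 and 3570 to 3780 on day 5 without LIF, and 7880 to 9760 on day 2 with RA. That of 12 postmitotic neuron markers was 2350 to 2820 in control, 2520 to 3300 on day 3, 1700 to 1980 on day 5 and 2350 to 2510 on day 2 with RA. MAS5 signals do not reach 0. Of these, Dcx, Snap25 (1.37 to 3.52), Syp and Elavl4 failed the brightness filter, and Tubb3, read by a probe set for a family of similar sequences, had arm means of 1170 to 1390. The sum of 12 neural progenitor markers was 833 to 1200 in control and 1910 to 2050 on day 5. It was 2860 to 2890 on day 2 with RA. On day 5 the rise lay mainly in Sox11 (795, against 305 in control), Cdh2 (278, against 7.22) and Nes (206, against 78.1). Sox1 (18.2, against 38.3) and Pax6 (9.46, against 19.8) fell, and Sox3 (55.9, against 54.5) hardly changed. The day 5 sum therefore does not show more neural progenitors. The summed signal of 8 early mesoderm markers was 1650 to 2130 on day 5, against 132 to 178 in control. Of 8 pancreatic and enteroendocrine markers 1 passed the filter (Chga), with summed signals of 114 to 150 on day 5, against 114 to 140 in control. The sum of 11 fibroblast markers was 448 to 590 in control, 533 to 1100 on day 1, 1180 to 1280 on day 3 and 1430 to 1540 on day 5 without LIF, and 973 to 1230 on day 1 and 1700 to 2700 on day 2 with RA. That rise lay mainly in Tagln, whose mean was 44.5 in control, 607 on day 3 and 1240 on day 2 with RA. Dcn and Acta2 rose as well, to 156 and 65.6 on day 5, against 13.1 and 12.6 in control. Thy1 fell to 19.6 on day 5, against 52.7 in control. Col1a2 (305 and 260) and Vim (20.5 and 23.1) changed little. The sum is therefore no measure of fibroblast content, and the part of fibroblasts in the fall of Mapt and Neurod1 was not tested. Stem cell marker sums of control and day 1 without LIF overlapped, and 4 of the 12 neuron markers were too dim to test.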

How the data were processed

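Expression was measured in 18 RNA samples of Oct4 reporter mouse embryonic stem cells on 2 Affymetrix array types (MG_U74Av2, chip A; MG_U74Bv2, chip B), after 2 rounds of amplification. Per the submitters' processing notes the deposited values are MAS5 signal intensities made by the authors. Their trimmed mean was 150.1 on chip A and 150.04 on chip B, so they were used without further normalization. No detection calls were used, and precision rests on how many arrays each arm has. The run record of each array gave its scan day.

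Groups came from the labels. Values were log2 transformed with a pseudocount of 4 (chip A) or 7 (chip B), and the brightest 60% of probe sets of each chip (7453 and 7447) were fitted on arm and gate over 18 samples with limma 3.58.1 in R 4.3.3, with Benjamini-Hochberg adjustment within each chip. The fit was tested on simulated data. Gene lists use 1 probe set per gene: the brightest on chip A, or on chip B where chip A had none. The members and lists were chosen with earlier results of these data known. The text names all member probe sets, the 6 likest genes by Pearson r within a chip, up to 4 list members with the smallest p per comparison, and marker genes. Alternatives covered pseudocount, filter, normalization, scan day, probe set and left-out samples. Same-numbered high gate samples of control and day 1 do not share a culture by the labels, and their deviations correlated at 0.17 (chip A) and 0.11 (chip B) over 2 pairs.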

Additional observations from a re-analysis of the deposited data

Results flagged for a closer look

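In the 4 samples of day 1 without LIF, high gate replicate 2 lay far below the other 3 for both leads. For Mapt (102431_at) its gap to the next sample was 0.862 of the whole range of the 4 on the log2 scale (25.2, against 129 to 165 in the others). For Neurod1 (163624_i_at) the gap was 0.863 of the range (38.9, against 55.0 to 58.0). Both are above Dixon's 95% critical value for 4 samples, and chance gives such a gap in about 1 in 20 groups. The other 5 probe sets of the 2 genes did not show it in this arm.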

How the results depend on the processing

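With 2 to 4 samples per arm and dim signals in the differentiated arms, the comparisons resolve only large differences, and neither lead passed a filter on the brightest 40% of probe sets, so that alternative gave no value. Both alternatives that combine the loss of day 1 high gate replicate 2 with another choice were chosen after seeing the data. The arms of 3 comparisons (day 3 against day 1, the 2 day 1 arms, and the 2 RA arms) share no scan day and no fixed block could be fitted. Over all probe sets, calls numbered 508, 972, 644, 358 and 1176 in the 5 comparisons of arms in the order of the report. They were 2218, 2571, 1156, 745 and 2668 without high gate replicate 2. They were 172, 380, 271, 141 and 742 with no filter, 204, 450, 349, 177 and 723 over the 12 samples without control and day 5, and 8, 4, 1147, 6 and 2111 under a random block for scan day. With that block and without high gate replicate 2 they were 942, 1291, 1266, 148 and 2785. Over the 12 samples less that library they were 2242, 2542, 1041, 654 and 2554, with 2 calls between gates. The fixed block gave 1413 and 2889 where it could be fitted, and single scan days 245 and 1863.

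For Mapt on day 3 against day 1 without LIF, the change was -0.64, -0.52 and -0.36 for 102742_g_at, 102743_at and 116406_at, 0.05 for 164807_at, -0.16 for the mean of the chip B probe sets and -2.45 under a random scan day block, none past the test. Leaving out 1 sample at a time gave -3.18 to -2.40. Between the day 1 arms, with RA against without LIF, 102743_at gave -0.27, 116406_at -0.71, 164807_at -0.17, the chip B mean -0.44 and the random block -1.92. With no filter the value was -2.20 with a limma adjusted p of 0.0578, and left-out samples gave -2.81 to -1.81. For day 1 with RA against day 3 without LIF the sign turned for 102742_g_at (-0.46), 116406_at (-0.35), 164807_at (-0.22) and the chip B mean (-0.28), and left-out samples gave -0.10 to 0.90. For day 2 against day 1 with RA it turned for 102743_at (-0.38), with 0.45 to 1.43 over left-out samples. For day 2 with RA against day 1 without LIF it turned for 164807_at (0.12). The test was passed without high gate replicate 2 (-1.81, and -1.93 over 12 samples), with a fixed block (-1.79), with a random block less that library (-1.81) and within scan day 3 (-1.62). Left-out samples gave -1.81 to -1.16. Between gates 164807_at gave -0.01, and left-out samples 0.70 to 1.21.

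The described day 5 change of Mapt against control was -2.18, -1.76, -1.84 and -0.19 for the other probe sets, -2.66 and -1.02 for the means of chips A and B, -5.57 with a fixed block, which rests on the pair of libraries of scan day 1, and -4.47 to -3.62 over left-out samples. For 164807_at it was 0.01 on day 1 and 0.05 on day 3 without LIF and 0.12 on day 2 with RA. That of Neurod1 was -1.56 for 92717_at, -2.36 with a pseudocount of 1, -1.37 with 0.5 of the chip median, -2.49 with a fixed block and -2.18 to -1.96 over left-out samples.

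For Neurod1, day 1 with RA against day 1 without LIF gave 0.09 for 92717_at, -0.60 without high gate replicate 2 and -0.72 to -0.35 over left-out samples. Against day 3 without LIF, 92717_at gave 0.00. The value was -0.70 and past the test without that library, with a fixed block, with a random block and with that block less the library, but not over 12 samples less the library, and -0.94 to -0.58 over left-out samples. Day 2 with RA against day 1 without LIF passed without that library (-0.67), with a fixed block (-0.67), with a random block less that library (-0.67) and within scan day 3 (-0.75), and left-out samples gave -0.67 to -0.45. Day 3 against day 1 without LIF gave 0.11 to 0.35 and day 2 against day 1 with RA -0.24 to 0.08 over left-out samples. Between gates 92717_at gave 0.22, scan day 3 gave 0.04 and left-out samples -0.20 to 0.03. In every filtered fit of Neurod1 the controls counted toward the filter.

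High gate samples of day 1 without LIF and of control share replicate numbers 1 and 2, which the labels do not tie to a culture. With the replicate block, day 1 minus control in the high gate was -2.67 ± 0.36 for Mapt (0.74 without the block) and -1.20 ± 0.26 for Neurod1 (0.30), with 0 limma calls either way. Over all alternatives, 673 recomputed counts of list members stayed within 1.5 times of those given and 137 did not. Counts of 1 or 2 list members moved by 1 or 2 when single control, day 5 or day 2 samples were left out.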
